A study of Mus musculus with 11 samples.

Results

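The transcripts described here encode the proteins of the cytosolic ribosome. They were taken from a table of fragment counts as the rows whose symbol is Rpl or Rps followed by a number and at most a letter or an x, together with Rplp0, Rplp1, Rplp2 and Rpsa, with pseudogene (-ps) names and S6 kinases left out. The rule finds 76 of 30986 rows, of which 29 belong to the small ribosomal subunit (Rps names, Rpsa included) and 47 to the large subunit (Rpl names). The label fits 75 rows, which are protein-coding genes in GENCODE M21, while Rps4l is annotated there as a transcribed processed pseudogene. A further 6 protein-coding symbols that fit the rule in RefSeq (Rpl24, Rpl30 and Rps27 among them) have no row in the table used here.

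The study recovered RNA fragments crosslinked to FMRP, the RNA-binding protein lost in Fragile X syndrome, from brain regions of mice at postnatal day 13. The libraries analysed by region were 2 from cerebellum, 3 from cortex and 5 from hippocampus, and 1 further library carries cortex in its title and hippocampus as its tissue, so it was put in no region. In all groups the tissue was ground frozen and given 3 ultraviolet exposures of 400 mJ at 254 nm, after which FMRP was immunoprecipitated. Strain, genotype and the number of animals behind a library are not given in the labels, and neither an input library nor a library without FMRP was analysed here, so the amount of an RNA and its binding cannot be told apart. In these bulk tissues fewer cells of a type and less RNA per cell cannot be told apart either.

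Ribosomal proteins are made in near-equal numbers, as fixed parts of one particle, and their mRNAs are short and among the most heavily translated of most cells. Many of these mRNAs begin with a run of pyrimidines, the terminal oligopyrimidine tract, through which mTOR signalling and the protein Larp1 control their translation. Several ribosomal protein genes also carry small nucleolar RNAs (snoRNAs) in their introns, which are released from the spliced intron and guide chemical modification of ribosomal RNA. FMRP associates with polyribosomes, and its well-known targets are mostly long neuronal mRNAs.

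Library totals ran from 11898 to 197382 counts, and the 76 rows together held 9 to 228 counts in a library. Hippocampus 1 and hippocampus 2 showed no detectable difference beyond sampling noise and were counted as 1 sample (hippocampus 1+2), which left 2 cerebellum, 3 cortex and 4 hippocampus samples. Region markers followed the tissue labels: the 10 cerebellar markers summed to between 7230 and 8234 CPM (counts per 1000000 counts of the library) in cerebellum and to between 691 and 1172 CPM in forebrain (cortex and hippocampus). The 5 hippocampal markers overlapped, at 911 to 3344 CPM in hippocampus, 168 to 1398 CPM in cortex and 1373 to 1467 CPM in cerebellum. Hippocampus 3, hippocampus 4 and cortex 3 stood apart, with 2.03, 3.22 and 3.00% of their counts on 42 known FMRP-bound mRNAs, against 5.37 to 8.73% in the other 6 samples. These 3 also had 12.6, 12.2 and 12.5% of their counts on predicted genes with Gm names, against 3.10 to 7.49% in the others. The summed level, the counts of calls and the differences of the leading rows were therefore also computed without them.

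Fragments of ribosomal protein mRNAs were few. All 76 rows together took 730 of 712686 counts, or 0.102% of the counts, while they make up 0.245% of the rows. The median ribosomal protein row had 5 counts over all 11 libraries, against 8 for the median row of the table, and 49 of 76 rows (64.5%) had under 10 counts, against 54.4% of all rows. Small subunit rows had a median of 9 counts and large subunit rows a median of 5. Every row had at least 1 count, as all rows of the table do, and 8 rows had exactly 1, among them Rps6, the subunit protein phosphorylated by S6 kinases, and Rplp2, a protein of the ribosomal stalk. The 12 rows with the most counts held 45.8% of all ribosomal protein counts.

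The summed level was close to the same share of every library. Cerebellum 1 and 2 had 890 and 1155 CPM, cortex 1 to 3 had 814, 1129 and 756 CPM, and hippocampus 1 to 5 had 945, 880, 1057, 1276 and 790 CPM. The library with conflicting labels had 1022 CPM. The highest value is 1.69 times the lowest, and the regions overlap. Exact Clopper-Pearson 95% intervals, which cover counting error only because amplified fragments are not independent molecules, ran from 346 to 1435 CPM in cortex 3 and from 1010 to 1315 CPM in cerebellum 2. Known FMRP-bound mRNAs, among them Apc and Map1b, varied more, from 20286 to 87334 CPM (4.31-fold), and the rows with Gm names varied 4.05-fold. The 76 mitochondrial ribosomal protein rows, which belong to the ribosome of another compartment, held 619 counts and varied 2.16-fold, from 553 to 1193 CPM.

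**Figure D1:**
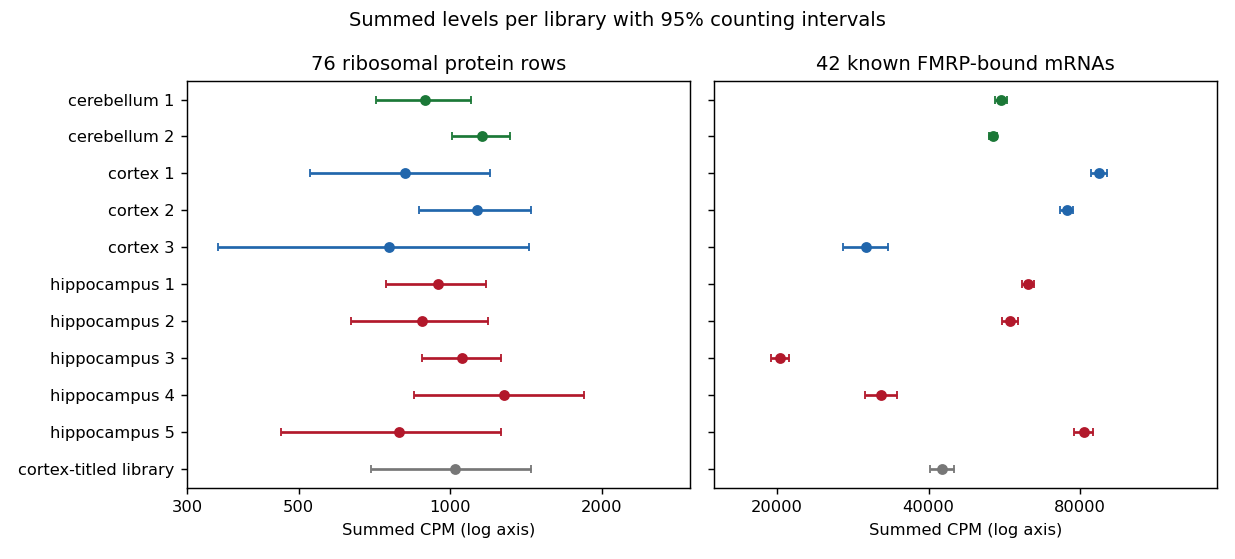
Summed CPM (log axes that both span a 10-fold range) of the 76 ribosomal protein rows and of 42 known FMRP-bound mRNAs in each of 11 libraries; points are library values, bars are 95% exact counting intervals, and colours mark cerebellum (green), cortex (blue), hippocampus (red) and the library with conflicting labels (grey). Ribosomal protein rows lie between 756 and 1276 CPM with wide intervals, while known FMRP-bound mRNAs spread from 20286 to 87334 CPM.

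By region the sum averaged 1023 ± 187 CPM over the cerebellum samples (SD, n = 2), 900 ± 201 CPM over those of cortex (n = 3) and 1011 ± 208 CPM over those of hippocampus (n = 4). The differences between these means are smaller than the spread within regions. Pooled over libraries, cerebellum was 1.08 times forebrain (95% counting interval 0.926 to 1.26) and cortex 0.993 times hippocampus (0.781 to 1.25). Without hippocampus 3, hippocampus 4 and cortex 3, cortex had 972 ± 223 CPM (n = 2) and hippocampus 855 ± 92.9 CPM (n = 2), which turns the direction of the small difference between their means. The small subunit took 39.5% of ribosomal protein counts (interval 35.9 to 43.1%), and its share per library ran from 11.1% in cortex 3, where it is 1 of 9 counts, to 58.8% in hippocampus 5.

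The evenness of the sum depends on what it is measured against. TMM factors scale samples on the 1720 rows deep enough for the test below. Those rows include 41 of the 42 known FMRP-bound mRNAs and 0 ribosomal protein rows. With totals multiplied by these factors, the sum ran from 601 to 1650 CPM (2.74-fold). Hippocampus 3 at 1641 and hippocampus 4 at 1650 CPM were above the other samples. As a percentage of the counts of known FMRP-bound mRNAs, ribosomal protein counts ran from 0.932% in cortex 1 to 5.21% in hippocampus 3, a 5.59-fold range. Hippocampus 4 with 3.96% and cortex 3 with 2.52% followed hippocampus 3. The 3 samples that stood apart by their known targets are thus the 3 highest on this scale. Part of this is fixed by the denominator, which is low in those samples.

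Rpl4, a large subunit protein near the peptide exit tunnel, had the most counts, 67, and ranked 2017 among all rows. Its counts were 6 and 26 in cerebellum 1 and 2, 5, 6 and 0 in cortex 1 to 3, 12, 3, 6, 2 and 1 in hippocampus 1 to 5, and 0 in the library with conflicting labels. The cerebellum mean was 97.3 ± 48.7 CPM (SD, n = 2), the cortex mean 90.1 ± 82.8 CPM (n = 3) and the hippocampus mean 75.96 ± 32.9 CPM (n = 4), with overlap between all regions. The gene lies on chromosome 9 from 64173375 to 64178666 (plus strand, GRCm38).

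Rpsa, a small subunit protein also known as the laminin receptor, came next with 36 counts. It had 4 and 10 counts in cerebellum, 0 in all 3 cortex libraries, 11, 3, 7, 0 and 0 in hippocampus 1 to 5, and 1 in the library with conflicting labels. Since 3 counts are compatible with a 0, the limit is 53.8 CPM for cortex 2 and 252 CPM for cortex 3. Taken singly, no cortex zero sets Rpsa below its 41.8 ± 52.0 CPM of hippocampus (n = 4). The limit over the 3 cortex libraries together would be lower and was not computed. Hippocampus 4 and 5 were also at 0, so the regions overlap. Rps3, which sits at the entry of the mRNA channel, had 29 counts, with a cerebellum mean of 48.8 ± 9.78 CPM, a cortex mean of 39.6 ± 34.8 and a hippocampus mean of 25.7 ± 19.3 (SD, n = 2, 3 and 4).

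The stalk proteins recruit the translation factors to the ribosome. Rplp0, at the base of the stalk, had 31 counts in 9 of 11 libraries, with a cerebellum mean of 49.3 ± 33.9 CPM (SD, n = 2), a cortex mean of 51.9 ± 45.4 (n = 3) and a hippocampus mean of 42.8 ± 37.7 (n = 4). Rplp1 had 13 counts: 2 and 1 in cerebellum, 0 in cortex 1 to 3, 2, 1, 5, 0 and 1 in hippocampus 1 to 5, and 1 in the library with conflicting labels. Rplp2 had a single count, in cortex 2. Per kilobase of coding sequence Rplp1 had 38.0 counts, Rplp0 32.6 and Rplp2 2.90, although Rplp1 and Rplp2 form dimers on the stalk. The regions cannot be compared for Rplp1 and Rplp2 at this depth.

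Rpl21 was the only row with a count in all 11 libraries: 2 and 3 in cerebellum, 2, 4 and 1 in cortex 1 to 3, 4, 1, 4, 3 and 2 in hippocampus 1 to 5, and 2 in the library with conflicting labels. The cerebellum mean of 18.1 ± 4.07 CPM (SD, n = 2) comes from values below every forebrain sample, whose means were 73.6 ± 9.62 CPM for cortex (n = 3) and 75.5 ± 48.8 CPM for hippocampus (n = 4). Over separate libraries the groups meet, at 20.947 CPM in hippocampus 2 (1 count) and 20.953 CPM in cerebellum 1 (2 counts). The highest forebrain values rest on few counts in shallow libraries, such as 84.0 CPM from 1 count in cortex 3 and 137 CPM from 3 in hippocampus 4. Rpl6, a large subunit protein, went the other way, with 6 and 11 counts in cerebellum and 1, 2 and 0 in cortex 1 to 3. Hippocampus 1 to 5 had 3, 0, 1, 0 and 0 counts of Rpl6, which gives 59.3 ± 5.04 CPM in cerebellum (n = 2) and 14.3 ± 15.9 CPM in forebrain (n = 7). Among the 27 rows with at least 10 counts over the 9 samples, the measured values of the cerebellum samples lay above those of all forebrain samples in 3 (Rpl6, Rpl13a and Rps20) and below all of them in 1 (Rpl21). Rpl6, Rpl13a and Rps20 were at 0 in cortex 3, hippocampus 4 and hippocampus 5, where 3 counts come to 252, 137 and 139 CPM, so at this depth these samples could hold levels above those of cerebellum. Over all rows of that depth the shares were 3.37 and 1.01%. Measured values of cortex lay below those of hippocampus with no overlap in 2 of the 27 (Rpl8 among them), against 3.23% of all such rows, and above it in 0, against 1.27%. No test was made of these shares, and Rpl13a and Rps20 were named after their values were seen.

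Several of these differences change without hippocampus 3, hippocampus 4 and cortex 3. Cerebellum minus forebrain turned from 15.3 to -10.7 CPM for Rpl4 and from 17.2 to -0.188 CPM for Rps3, and it grew from 2.61 to 19.9 CPM for Rplp0. It shrank from 4.52 to 0.581 CPM for Rpl8 and from -5.55 to -3.02 CPM for Rpl15, and went from -1.17 to -6.72 CPM for Rpl19. For Rpl6 it was 45.0 CPM with and 36.4 CPM without the 3 samples, and for Rpl21 -56.6 and -48.9 CPM. All these shifts are smaller than 1 SD within regions, but Rpl4 and Rps3 changed sign and carry no stable direction. Over all alternatives, 22 of 156 differences changed sign, in 9 of the 12 leading rows. In samples whose titles open with s alone, Rpsa turned from 22.4 to -9.42 CPM and Rpl21 went from -56.6 to -27.8 CPM. Both of those shifts exceed 1 SD.

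**Figure D2:**
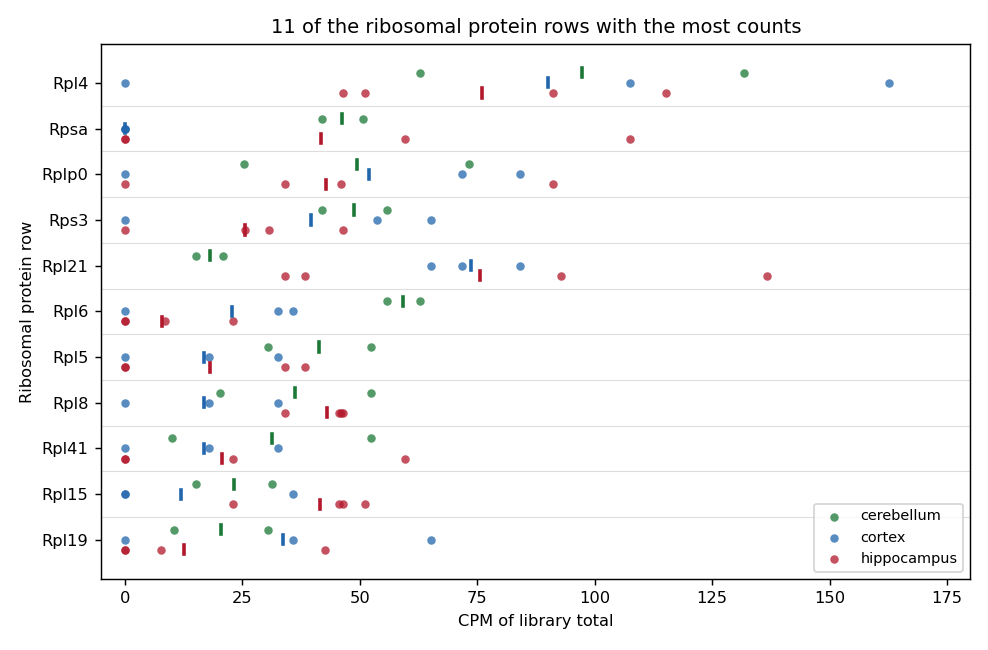
CPM of library totals (linear axis) of 11 of the ribosomal protein rows with the most counts in 2 cerebellum (green), 3 cortex (blue) and 4 hippocampus (red) samples; points are samples and short vertical bars are region means. Most rows overlap between regions and many samples are at 0, while Rpl6 is highest and Rpl21 lowest in both cerebellum samples.

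The other leading rows were large subunit proteins with overlapping regions. Rpl5, which carries the 5S ribosomal RNA, and Rpl8 had 23 counts each, Rpl41, the shortest ribosomal protein, had 20, Rpl15 19 and Rpl19 17. Cerebellum means ran from 20.4 CPM (Rpl19) to 41.4 CPM (Rpl5), and forebrain means from 17.6 CPM (Rpl5) to 31.8 CPM (Rpl8). Rpl8 had a cerebellum mean of 36.3 ± 22.7 CPM (SD, n = 2), a cortex mean of 16.8 ± 16.3 CPM (n = 3) and a hippocampus mean of 43.0 ± 5.97 CPM (n = 4). The paralog rows had 2 to 8 counts, around the median of 5 over all 76 rows. Rpl3l, known from heart and skeletal muscle, had 8 counts against 6 for Rpl3; Rpl39l and Rpl10l, known from testis, had 3 and 2 against 1 for Rpl39 and 4 for Rpl10. Rps4l had 5 against 12 for Rps4x, and Rps27l had 5, while its parent Rps27 has no row in the table used here. Fau, whose product is cut into a ubiquitin-like protein and a ribosomal protein, stands outside the rule and had 14 counts.

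None of the 76 rows reached the depth for the test of all rows. With edgeR's quasi-likelihood test over the 9 samples, 1720 rows passed the filter on low counts, and 0 of 76 ribosomal protein rows were among them, since the filter asks for 179 CPM in at least 2 samples. Between cerebellum and forebrain 132 of the 1720 rows were called (7.67%) at a Benjamini-Hochberg adjusted p under 0.05, 67 higher and 65 lower, or 37 higher and 17 lower without TMM factors. Between cortex and hippocampus 0 rows were called (0%), 68 had an unadjusted p under 0.05, and DESeq2 called 1. Leaving out cerebellum 1 took the 132 calls to 2, leaving out cerebellum 2 to 17, leaving out cortex 1 to 15 and leaving out hippocampus 1+2 to 81.

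With a lower filter of 10 counts over the samples, 13656 rows entered the edgeR test and 18 (0.132%) were called between cerebellum and forebrain. Between cortex and hippocampus 0 of the 13656 rows were called. Of the 27 ribosomal protein rows in that fit, 0 were called in either comparison, and 0 and 2 had an unadjusted p under 0.05. Over all 13656 rows, 542 and 442 had an unadjusted p under 0.05 in the same order. The log2 fold change of cerebellum over forebrain had a median of 0.47 over the 27 rows, with 20 above and 7 below 0, beside a median of 0.28 over all rows in the fit. For cortex over hippocampus the median was -0.14, with 11 above and 16 below 0, beside -0.45 over all rows. Rpl6 had a log2 fold change of 1.54 (SE 0.99, edgeR adjusted p = 0.999) between cerebellum and forebrain, and Rpl21 one of -0.80 (SE 1.01, edgeR adjusted p = 0.999). Rpsa was 1 of the 2 rows with an unadjusted p under 0.05 between cortex and hippocampus, with an edgeR adjusted p = 0.9996 and 0 counts in cortex, so that its fitted fold change depends on the prior count. Without any filter 75 of the 76 rows entered and 0 were called. Over all 30818 rows of that fit, 1 was called between cerebellum and forebrain and 0 between cortex and hippocampus.

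Ribosomal protein mRNAs are short, so levels between genes were compared per length. Over the 75 protein-coding rows the longest coding sequence had a median of 468 bases (138 in Rpl41 to 1257 in Rpl4), against 1176 over 21841 protein-coding genes. The median was 13.8 counts per kilobase of coding sequence, against 7.94 over all protein-coding genes, 10.3 over mitochondrial ribosomal proteins and 89.1 over known FMRP-bound mRNAs. Per kilobase of transcript the medians were 8.38, 4.33, 4.39 and 70.0 in the same order. Summed counts over summed coding length were 18.3 per kilobase for ribosomal proteins, 17.3 for all protein-coding genes and 115 for known FMRP-bound mRNAs. Ribosomal protein rows all have a count, and 18922 of the protein-coding genes do. Over those genes the median was 9.80 and the summed level 18.8 per coding kilobase. Ribosomal protein rows thus lay above the median gene and close to the average coding kilobase. Both levels were far under those of known FMRP-bound mRNAs, with no scaling for the amount of each RNA.

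Rpl41 stood highest per coding kilobase with 145 counts per kilobase, at percentile 99.1 of all protein-coding genes, followed by Rps29 with 95.2, Rpl21 with 58.3 and Rpl4 with 53.3. Per kilobase of transcript Rpl4 led with 43.6, followed by Rps29 with 41.0 and Rpl41 with 39.3. In the GENCODE transcript used for Rpl41, the one with the longest coding sequence, 138 of 509 bases code. Other transcripts of Rpl41 were not compared, and its level per coding kilobase depends on that choice. The order of these rows rests on 16 to 67 counts. Across the 75 genes, counts rose with coding length with a Spearman rho of 0.297, against 0.556 across all protein-coding genes. This is a description over genes that share the same libraries.

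**Figure D3:**
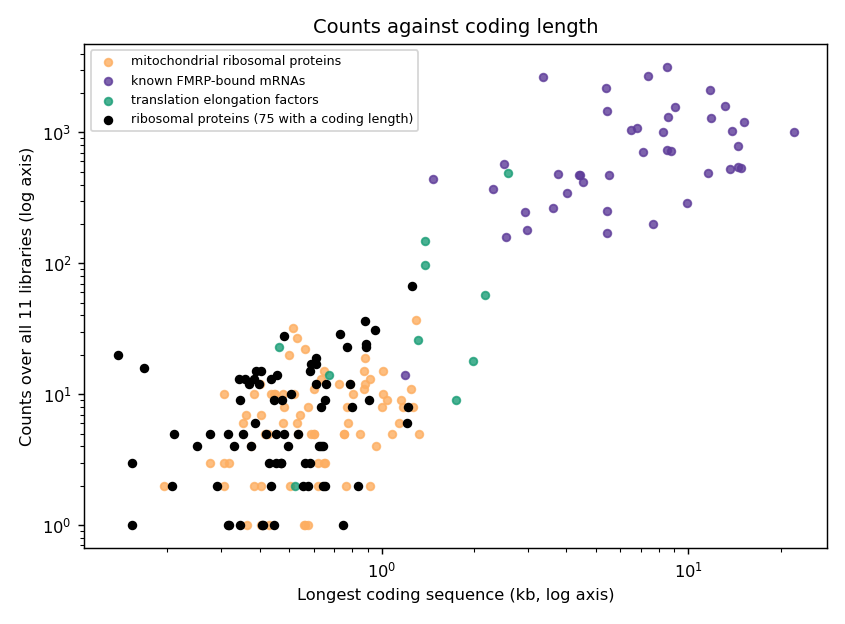
Counts over all 11 libraries against longest coding sequence (both axes log) for 75 ribosomal protein genes (black), mitochondrial ribosomal proteins (orange), translation elongation factors (green) and known FMRP-bound mRNAs (purple), each point a gene with a count. Ribosomal proteins occupy the corner of short and low rows beside the mitochondrial ones, while known FMRP-bound mRNAs, at a median coding length of 6962 bases, stand far higher.

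Other genes of the translation machinery carried more counts per row. The 10 translation elongation factors held 884 counts, against 730 for all 76 ribosomal protein rows. Eef2, the factor that moves the ribosome along the mRNA and is itself translated from a mRNA with a pyrimidine tract, held 490 of them, more than all 29 small subunit rows together (288). It had 74 and 172 counts in cerebellum, 21, 37 and 5 in cortex 1 to 3, and 72, 54, 19, 10 and 18 in hippocampus 1 to 5, with 8 in the library with conflicting labels. Per coding kilobase Eef2 had 190 counts and Eef1a1, which delivers aminoacyl-tRNA, 107, so that Eef2 was above every ribosomal protein row and Eef1a1 above every one except Rpl41. Of these 10 factors 3 were tested and 0 called in either direction: Eef2 had a log2 fold change of 0.86 (SE 0.51, edgeR adjusted p = 0.401) between cerebellum and forebrain, Eef1a1 one of -0.09 (SE 0.57) and Eef1a2, its neuronal form, one of -0.52 (SE 0.67).

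Lists linked to ribosomal proteins gave 0 calls in both comparisons of the edgeR test. Of 21 other mRNAs known for a pyrimidine tract at their start 3 were tested (Eef2, Eef1a1 and Eif4b), of 32 ribosome assembly factors 2 (Mdn1 and Heatr1), of 19 regulators linked to the ribosome 5, Mtor and Larp1 among them, and of 10 S6 kinases and 76 mitochondrial ribosomal proteins 0. Of 15 noncoding snoRNA host genes 2 were tested, Gas5 and Snhg11. Known FMRP-bound mRNAs, of which 41 of 42 were tested, had 3 higher and 3 lower in cerebellum than in forebrain and 0 called between cortex and hippocampus. In the fit with the lower filter their median log2 fold change of cerebellum over forebrain was 0.43, beside 0.47 for ribosomal proteins.

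Bases around the annotated start are shown because a pyrimidine tract at the start of the mRNA is the feature that ribosomal protein mRNAs are known for. A window of 15 bases on each side of the RefSeq start (GRCm38.p6) was read for 57 of the 76 rows on the transcribed strand, and a tract was taken as a C followed by at least 5 bases that are each C or T. The capitals mark the longest such tract, printed 5′ to 3′ for leading rows with one.
Rpl4 (chr9:64173372-64173401, plus strand): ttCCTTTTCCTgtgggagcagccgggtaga
Rpl6 (chr5:121204486-121204515, plus strand): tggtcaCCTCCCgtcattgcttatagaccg
Rpl15 (chr14:18270972-18271001, minus strand): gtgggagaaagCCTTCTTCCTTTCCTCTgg
Rpl19 (chr11:98026909-98026938, plus strand): tgggCTCTCCCCTTCgcagataatgggcgg
Rps15a (chr7:118116133-118116162, minus strand): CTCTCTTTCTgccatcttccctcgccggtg
Rps18 (chr17:33955651-33955680, minus strand): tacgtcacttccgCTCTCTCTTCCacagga

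A tract was found in 34 of the 57 rows (59.6%), against 25.5% of 27025 genes with a window and 28.4% of the 67 mitochondrial ribosomal proteins that have a window. Rps15a and Rps18 were chosen for printing after their tracts were seen. Rpsa, Rplp0, Rps3, Rpl5 and Rpl41 had no run of these letters in their windows. Counts differed little with the tract: the median was 7 counts in rows with a tract and 5 in rows without, with a range of single rows far wider than that. A match is a description of letters near an annotated start, which need not be the start used in these tissues. It may lie on either side of that start. In the printed windows of Rpl4, Rpl6, Rpl19 and Rps15a the tract ends before the RefSeq start of the window. The GENCODE M21 genes begin further upstream, at 64173375 for Rpl4, 121204481 for Rpl6 and 98026710 for Rpl19. Rps15a, on the minus strand, begins at 118116188. By those positions the tracts lie inside the gene, or at its edge in Rpl4. Which start is used in these tissues was not tested. Another Rpl19 window (chr11:98026695-98026724) had no tract.

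Ribosomal protein genes also contain snoRNA genes that have rows of their own. By RefSeq positions 56 snoRNA genes lie inside 27 of the 76 genes, and 30 of them, in 22 hosts, have a row, with 124 counts in all. In 7 hosts the snoRNA rows together exceeded the host row. Among these, Rpl13a had 28 snoRNA counts against 12 of its own, Rpl23a 12 against 3, Rpl3 8 against 6, Rpl13 7 against 4, Rpl27a 6 against 1 and Rplp2 2 against 1. Hosts of a snoRNA had a median of 8 counts in their own row, and the 49 other rows a median of 5.

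Of the snoRNAs with the most counts, 3 are shown with their C box (TGATGA) and D box (CTGA) in capitals, the short elements that define this class and bind its core proteins. Sequences and positions are those of GENCODE M21 (GRCm38), printed 5′ to 3′, and all 3 lie on the minus strand.
Snord32a, in Rpl13a (chr7:45127382-45127464): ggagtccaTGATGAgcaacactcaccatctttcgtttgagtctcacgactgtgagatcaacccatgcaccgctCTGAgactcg
Snord4a, in Rpl23a (chr11:78181686-78181756): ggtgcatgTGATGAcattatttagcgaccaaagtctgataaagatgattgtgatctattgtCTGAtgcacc
Snord33, in Rpl13a (chr7:45126864-45126947): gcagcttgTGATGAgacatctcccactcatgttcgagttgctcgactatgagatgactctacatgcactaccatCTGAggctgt

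Snord32a had 14 counts, of which 3 were in cerebellum 2, 4 and 1 in cortex 2 and 3, 2 each in hippocampus 4 and 5, 2 in the library with conflicting labels and 0 in the other 5 libraries. Rpl13a, its host, had 2 and 6 counts in cerebellum, 0 in cortex 1 to 3, 0, 1, 2, 0 and 0 in hippocampus 1 to 5, and 1 in the library with conflicting labels. The snoRNA was thus found in cortex 2 and 3 and hippocampus 4 and 5, where its host was not.

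The snoRNA rows followed the letter that opens a library's title, which is s in 6 libraries and p in 5, and whose meaning the labels do not give. The 30 snoRNA rows inside ribosomal protein genes summed to 105 and 167 CPM in cerebellum 1 and 2, 32.6 CPM in cortex 1, and 72.7, 83.8 and 102 CPM in hippocampus 1 to 3, all with s titles. With p titles they summed to 305 and 420 CPM in cortex 2 and 3, 684 and 604 CPM in hippocampus 4 and 5, and 264 CPM in the library with conflicting labels. The ranges, 32.6 to 167 and 264 to 684 CPM, do not overlap, and they rest on 66 and 58 counts. The ribosomal protein rows themselves overlapped, at 814 to 1155 CPM with s and 756 to 1276 CPM with p titles, and so did the 27 hosts alone, at 349 to 593 and 279 to 520 CPM.

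The same split held for the 80 rows named Snora or Snord as a whole, at 222 to 476 CPM with s and 968 to 1367 CPM with p titles, and for the noncoding snoRNA host genes, at 84.8 to 256 and 501 to 790 CPM. Gas5, a noncoding host whose RNA also begins with a pyrimidine tract, had 10.5 to 97.7 CPM with s and 264 to 604 CPM with p titles. It held 15 of the 100 counts of the noncoding hosts with s titles and 52 of the 81 with p titles. The split of that list thus rests largely on Gas5, and the other noncoding hosts were not summed by letter. Both cerebellum libraries have s titles, so this split was not compared with region there, and within hippocampus it set 4 and 5 above 1 to 3. P libraries were shallower on the whole, at 11898 to 55784 counts against 30721 to 197382, but the depths overlap. Cortex 1 (s, 30721 counts) had 32.6 CPM of snoRNA rows inside ribosomal protein genes against 264 CPM in the p library with conflicting labels (30344 counts), and hippocampus 2 (s, 47739 counts) had 83.8 CPM against 305 CPM in the deeper cortex 2 (p, 55784 counts). The date-like code in the title and the letter change together and cannot be told apart here, and the comparison of the letters was made after the values were seen, with no test.

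**Figure D4:**
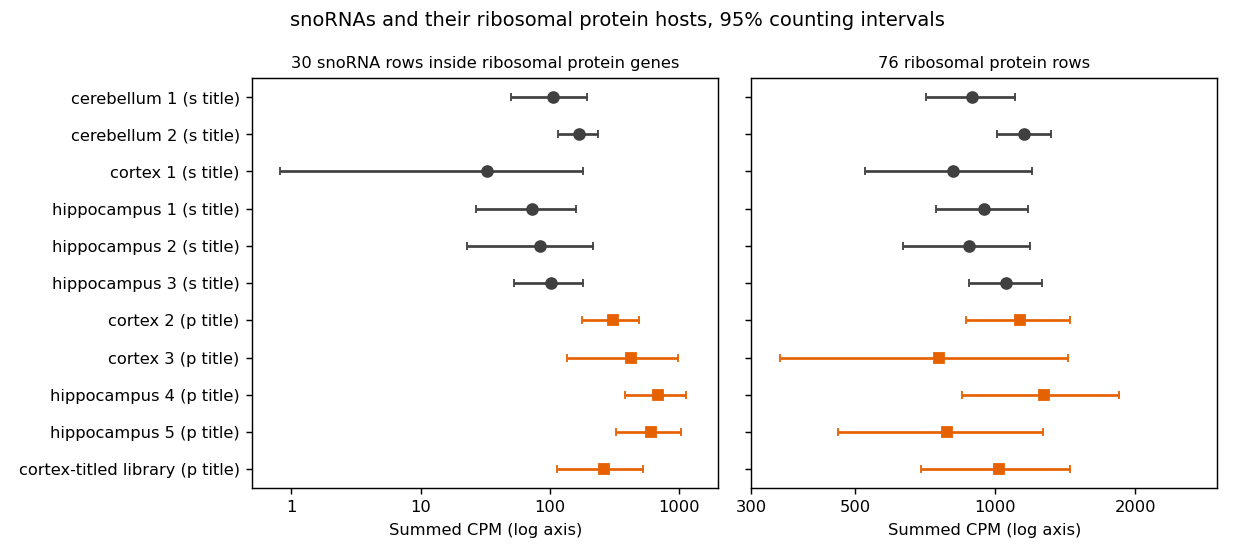
Summed CPM (log axes) of 30 snoRNA rows inside ribosomal protein genes and of the 76 ribosomal protein rows in 11 libraries, ordered by the letter of the title (s in dark circles, p in orange squares); bars are 95% exact counting intervals. The snoRNA rows separate at 32.6 to 167 against 264 to 684 CPM, while the ribosomal protein rows overlap.

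Ribosomal protein genes have many processed copies in the genome, whose fragments cannot be told apart from those of the parent when a copy is near-identical. Among GENCODE M21 pseudogenes, 1525 matched a ribosomal protein transcript with at least 85% identity over at least 50% of their length (blastn), and 36 of them have a row, with 159 counts in all. Gm5093, alike to Rpl11, had 19 counts against 5 for Rpl11, and the 4 rows alike to Rpl29 had 35 against 5 for Rpl29. The copies summed to 125 to 203 CPM in 8 libraries and to 418 CPM in hippocampus 3, 420 CPM in cortex 3 and 363 CPM in the library with conflicting labels. Hippocampus 3 and cortex 3 are among the 3 samples with the largest share of counts on Gm names, and hippocampus 4, the third, had 182 CPM. Whether these fragments came from the parents was not tested. Adding the copies to the ribosomal protein rows narrowed the range of the sum to 929 to 1475 CPM (1.59-fold).

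The use of strand in counting is not given in the sources used here, and 17 of the 76 rows, with 134 counts, overlap on the other strand a gene that has a row. Rps14, with 5 counts, overlaps Ndst1 with 368, and Rpl3, with 6, overlaps Syngr1 with 150, so these members are uncertain. Without the 17 rows the sum ran from 336 to 1185 CPM, with cortex 3 at the lower end. Of the leading 12 rows this touches Rpl5, which overlaps Fam69a with 12 counts, and Rpl15, which overlaps Nkiras1 with 15.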

How the data were processed

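Per the labels' protocols, RNA crosslinked to FMRP was recovered from mouse brain tissue and ligated into libraries by a small-RNA kit. The authors deposited whole-number fragment counts per gene symbol for 11 libraries, and these were used as deposited, with 0 sample columns left unused. The submitters' processing notes name mm10, Bowtie 0.12.7 and Picard; the counting program, annotation, use of strand and treatment of duplicates were not given in the sources used. CPM are counts over library totals (11898 to 197382) scaled to 1000000, and a count of 0 allows 3 counts, or 15.2 to 252 CPM. The members and lists were chosen with earlier results of these data known.

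Hippocampus 1 and 2 differed by a chi-square per degree of freedom of 1.03 (p = 0.192, 1873 rows; 1.49 to 8.62 in 13 other pairs) and were summed. The test across all rows was edgeR 4.0.16's quasi-likelihood test in R 4.3.3 (TMM, filterByExpr by region, title code as block, 9 samples, 4 residual degrees of freedom, Benjamini-Hochberg); SE is the log2 fold change over the root of F and approximate. Whether libraries come from separate animals is not given, so p-values measure the spread between libraries, which may be technical. Forebrain is the mean of the cortex and hippocampus coefficients. No value over the list was tested. Alternatives were DESeq2 1.42.0, other scalings and filters, other sample sets and each sample left out. The code was tested on simulated data, where it recovered 48.5% of 200 8-fold changes among 1720 rows, with 1 false call. Those rows had the depth of rows that pass the main filter, which no ribosomal protein row did. An absence of calls therefore does not show equal levels. Coding lengths, planned from protein lengths, were taken from GENCODE M21. Names follow a rule: the 12 members with the most counts, called members (0), the stalk proteins and Rpsa, paralogs ending in l, Fau and called or most-counted genes of the lists. Others are named as chosen after their values were seen, or as examples of an overlap, a snoRNA or a pseudogene. A few genes and sequences that this rule covers are not reported here.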

Additional observations from a re-analysis of the deposited data

Results flagged for a closer look

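In 18 groups of 4 hippocampus samples that were looked at, 2 had a sample far from the others by Dixon's 95% criterion, and chance alone flags about 1 in 20 such groups. The pseudogene rows alike to ribosomal protein transcripts summed to 417.654 CPM in hippocampus 3, against 139 to 182 CPM in the other 3 hippocampus samples. Rpl8 had 34.094 CPM in hippocampus 3, from 4 counts, against 45.6 to 46.4 CPM in the others, a gap that is far inside counting error. The library with conflicting labels, which is in no comparison, held 31 counts of ribosomal protein rows, or 1022 CPM, which lies within the range of the other libraries.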

How the results depend on the processing

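No ribosomal protein row was called under any of the 20 alternatives in either comparison (0 calls each, with each sample left out 0 to 0); in most of them no member passed the filter, so this says little about stability. Calls over all rows, 132 between cerebellum and forebrain, were 87 with DESeq2, 54 with library totals alone, 1 with no filter on low counts, 18 with at least 10 counts, 215 without the 3 samples of lowest known share, 85 with s titles alone and 2 to 176 with each sample left out (81 without hippocampus 1+2). Between cortex and hippocampus the 0 calls became 1 with DESeq2, 1 over 10 separate libraries, 1 with the conflicting library as cortex or as hippocampus, 3 without the 3 samples, and 0 to 1 with each sample left out. The conflicting library is the only one with its title code, and the title code is the block. Its region label therefore could not alter the calls, and its placements as cortex and as hippocampus are not separate alternatives.

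Without the replicate block the calls were 156 and 0. Deviations from region means had a median correlation of 0.143 over 8 pairs with the same title code (-0.161 to 0.374), against -0.052 over 18 pairs of different codes. The pairs are not independent. With only cerebellum 1 and 2 in their region, each value of one mirrors that of the other (0.155 and -0.155 with cortex 1). The 2 medians are therefore not separate evidence. The 3 pairs among cerebellum 1, cortex 1 and hippocampus 1+2 were at 0.131 to 0.374, but not every pair of the other codes was above 0, so a pairing by code was not taken as established.

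The log2 ratio of region means of the summed CPM was 0.0865 for cerebellum over forebrain (-0.1134 to 0.262 with each sample left out, -0.3397 relative to known FMRP-bound mRNAs, a scale added after seeing the data). For cortex over hippocampus it was -0.1678 (-0.3646 to -0.0358), -0.628 with TMM factors, 0.184 without the 3 samples and -0.8181 relative to known FMRP-bound mRNAs. Without TMM factors the median log2 fold change of all tested rows moved from 0.00 to 0.12 and from -0.04 to 0.24. For the 12 leading rows, 154 of 156 CPM differences moved by less than 1 SD, though 22 changed sign in 9 of the rows. Depth limits every single-row value: 49 of 76 rows have under 10 counts.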
